A study of Homo sapiens with 6 samples.

Results

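The family of miR-130, miR-301 and miR-454 is a group of human miRNAs that share a seed, and its mature arms were followed here in exosomes that were released by H9, an established line of human ES cells. The 9 members (both arms of miR-130a, miR-130b, miR-301a and miR-454, and the 3p arm of miR-301b) were taken by name from 2549 human miRNAs on the array. The family was chosen by measured values, because its signals in these same arrays differed between the substates, so that all differences of members between the substates are given as a description, without a test. H9 cells were kept in TeSR-E8 medium on Matrigel, an extracellular matrix under which 2 kinds of colonies appeared. Substate 1 stands for colonies of the usual shape, which stained brightly for the R-10G epitope and hardly for vimentin. Cells in colonies of substate 2 stood further apart, stained for vimentin and carried less of the R-10G epitope. Exosomes, small vesicles shed into the medium, were precipitated with ExoQuick-TC, and their miRNAs were hybridised in 3 experiments with 1 array for each substate.

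Cells of substate 1 were at passages 41, 46 and 50 in experiments 1, 2 and 3, and those of substate 2 at passages 52, 61 and 65. Substate 2 was thus always the later passage, and passage and substate cannot be told apart. Both arrays of an experiment received the same amount of labelled RNA (72.4, 100 and 51.4 ng in experiments 1, 2 and 3). Slide 1 held experiment 1, and slide 2 the other two. In experiment 1, 594 miRNAs were detected for substate 1 and 527 for substate 2. In experiment 2 these numbers were 465 and 470, and experiment 3 had 332 and 310. Precision is limited by the number of arrays.

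A mature miRNA guides Argonaute proteins to messenger RNAs that pair with its seed, the bases near its 5′ end, and lowers the output of these messengers. miRNAs with the same seed can therefore act on overlapping sets of targets. Members of the miR-130/miR-301 family are known as repressors of PPARG, a regulator of fat cell formation. Each hairpin precursor gives a 5p and a 3p arm, and usually one arm is kept while the other is degraded.

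The sequences of the 3p arms show what the family shares and where its members part. They are from RefSeq (GRCh38.p14), which held 8 of the 9 members by name, and capitals mark the seed, bases 2 to 8 from the 5′ end. The entry of miR-130a-3p was not among them. The last 2 lines are miRNAs outside the family that were found in RefSeq with the same seed and are on the array. Names on the array without a RefSeq entry were not searched.
hsa-miR-130b-3p: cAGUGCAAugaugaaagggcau
hsa-miR-301a-3p: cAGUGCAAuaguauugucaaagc
hsa-miR-301b-3p: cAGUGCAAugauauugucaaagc
hsa-miR-454-3p: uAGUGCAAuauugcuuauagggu
hsa-miR-3666: cAGUGCAAguguagaugccga
hsa-miR-4295: cAGUGCAAuguuuuccuu

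The seed AGUGCAA was found in 6 of 2370 human mature miRNA names of that table (0.253%), namely these 6. The 3p arms of miR-301a and miR-301b, both 23 bases long, differed by 2 substitutions, A10G and G11A, counted from 1 at the 5′ end with the base of miR-301a-3p first. Their first 9 and last 12 bases were the same. miR-130b-3p shared its first 12 bases with miR-301b-3p and its first 9 with miR-301a-3p. How much of the signal of a probe came from a related sequence was not tested.

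The 5p arms had other seeds, CUCUUUU in miR-130a-5p, CUCUUUC in miR-130b-5p, CUCUGAC in miR-301a-5p and CCCUAUC in miR-454-5p. Both arms of one precursor can be seen in the hairpin of miR-130b, the precursor of the only 5p arm that was detected. It is shown with its mature arms in capitals, 5p before 3p, and covers chr22:21653304-21653385 on the + strand of GRCh38.p14.
MIR130B hairpin: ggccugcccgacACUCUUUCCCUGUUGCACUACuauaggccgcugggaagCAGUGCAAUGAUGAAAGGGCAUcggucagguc

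In the same build, miR-301b-3p lies at chr22:21653025-21653047 and miR-130b-3p at chr22:21653354-21653375, on the same strand and 306 bases apart. Both lie within the span of LOC107985532, a transcribed pseudogene. On chromosome 17, miR-454-3p lies at chr17:59137787-59137809 and miR-301a-3p at chr17:59151149-59151171, both on the minus strand, 13339 bases apart and within the span of SKA2, a protein-coding gene of the spindle and kinetochore. MIR130A, on chromosome 11, lies within the span of its non-coding host gene MIR130AHG and had 0 other miRNA genes within 20000 bases. Whether these positions are exonic or intronic was not analysed here.

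Agilent Feature Extraction gives each miRNA a total signal, the background-subtracted intensity summed over its detected probes, and marks it as detected when at least 1 probe exceeds 3 times its error. All 5 of the 3p arms were detected on all 6 arrays, whereas none of the 4 5p arms was. Detection of miR-130b-5p was limited to 3 arrays (1 from substate 1 and 2 from substate 2), and miR-130a-5p, miR-301a-5p and miR-454-5p were detected on none. Thus 6 of the 9 members met the filter for the comparison of substates, detection on at least 3 arrays, which 474 of the 2549 miRNAs met. The 2 miRNAs found with the same seed outside the family, miR-3666 and miR-4295, were undetected on all 6 arrays, and so was the other arm of miR-301b. By a stricter mark, at least 1 probe well above background at most of its spots, miR-130a-3p, miR-130b-3p, miR-301a-3p and miR-301b-3p passed on all 6 arrays and miR-454-3p on 2 arrays from substate 1 and 3 from substate 2.

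**Figure D1:**
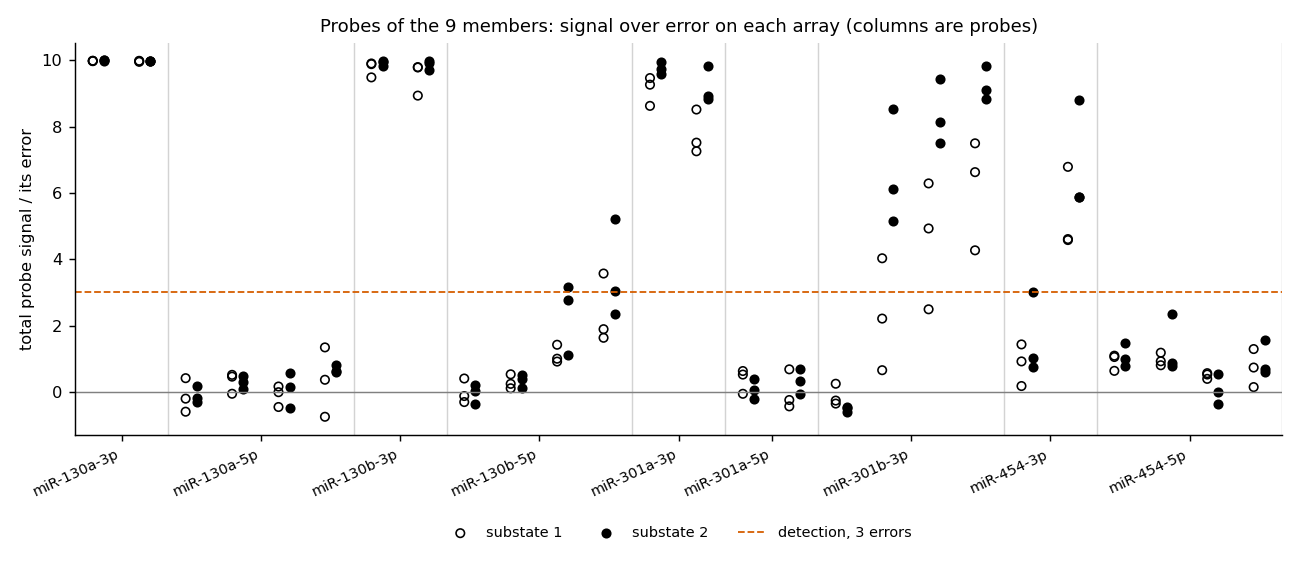
Total probe signal divided by its error (vertical axis, no unit) for each probe of the 9 members, with open circles for the 3 substate 1 arrays, filled circles for the 3 substate 2 arrays and a dashed line at the detection limit of 3 errors. Probes of miR-130a-3p sit near 10 on every array, whereas 1 of 4 probes of miR-301b-3p and all probes of miR-130a-5p, miR-301a-5p and miR-454-5p stay under 3.

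Total signals are given first in intensity units, before any scaling. The substate 2 array of experiment 2 was the highest for all 6 detected members, before scaling as well as after it. miR-130a-3p, known from endothelial cells and fat cell precursors, had total signals of 359 in substate 1 and 265 in substate 2 in experiment 1, 232 and 454 in experiment 2, and 144 and 142 in experiment 3. Unscaled, it was thus higher in substate 2 in experiment 2 alone. Each array was then scaled by its 99th percentile over all human miRNAs, which for substate 1 was 475.6, 355 and 179.9 in experiments 1, 2 and 3 and for substate 2 was 268.7, 281.8 and 125. A floor common to all arrays was then set at 0.431% of that percentile, or −7.86 on the log2 scale, and lower values were placed at it.

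As a share of the 99th percentile, miR-130a-3p had 75.5% and 98.5% in experiment 1, 65.4% and 161% in experiment 2, and 80.1% and 114% in experiment 3, with substate 1 first. All 3 substate 2 arrays lay above all 3 of substate 1 after scaling. The mean log2 value was −0.45 ± 0.15 in substate 1 and 0.28 ± 0.37 in substate 2 (SD, n = 3). The difference, substate 2 minus substate 1, was 0.73 ± 0.50 (SD, n = 3 experiments), a 1.66-fold difference, and the unscaled one was 0.17 ± 0.72. In all such differences, a larger part of the exosomes from one kind of cell and more of a miRNA per exosome cannot be told apart. As both arrays of an experiment received the same amount of RNA, signals are relative to the RNA loaded. The amount of exosomes released cannot be read from them.

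miR-130b-3p, encoded next to miR-301b, had total signals of 52.0 and 54.8 in experiment 1, 35.8 and 98.1 in experiment 2, and 17.3 and 30.6 in experiment 3. It was the higher in substate 2 in each experiment, before scaling as well as after it. The 3 substate 1 arrays lay close together, at −3.19, −3.31 and −3.38 on the scaled log2 scale, and those of substate 2 at −2.29, −1.52 and −2.03. The difference was 1.35 ± 0.45 (2.54-fold), the smallest SD among the 3p arms.

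For miR-301a-3p, a repressor of the NF-κB repressing factor NKRF, the total signals were 15.5 and 14.8 in experiment 1, 10.7 and 45.5 in experiment 2, and 9.29 and 16.1 in experiment 3. After scaling, substates did not overlap, and the substate 2 array of experiment 2 stood highest. The scaled differences were 0.76, 2.42 and 1.31 in experiments 1, 2 and 3, with a mean of 1.50 ± 0.85 (2.82-fold), whereas the unscaled one was −0.07 in experiment 1.

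miR-301b-3p was a dim signal, with totals of 4.0 and 5.15 in experiment 1, 2.12 and 14.2 in experiment 2, and 0.791 and 5.29 in experiment 3. It was higher in substate 2 in each experiment with and without scaling, and all substate 2 arrays lay above all substate 1 arrays. The substate 1 arrays were near the floor, at −6.89, −7.39 and −7.83. Differences of 1.19, 3.08 and 3.27 gave a mean of 2.51 ± 1.15 (5.70-fold). This mean was 1.49 after quantile normalization and 0.80 after normexp with an offset of 50.

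miR-454-3p was dim as well, with totals of 3.07 and 1.69 in experiment 1, 1.51 and 5.48 in experiment 2, and 1.74 and 2.10 in experiment 3. Substates overlapped, and the direction was not shared by the experiments. Scaled differences were −0.04, 2.17 and 0.80, with a mean of 0.98 ± 1.12, so that the SD exceeded the mean. In experiment 2 the substate 1 array was raised to the floor.

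Among the 5p arms, miR-130b-5p had total signals of 0.629 and 0.374 in experiment 1 and was undetected in substate 1 and at 1.38 in substate 2 in experiment 2. In experiment 3 it was undetected in both substates. Only the substate 2 array of experiment 2 exceeded the floor, at 0.490% of the 99th percentile, so that its difference of 0.06 ± 0.11 mostly describes the floor and no fold is given. It was 0.72 with signals under 1 raised to 1 and no common floor, and 1.72 with the authors' deposited log2 values.

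**Figure D2:**
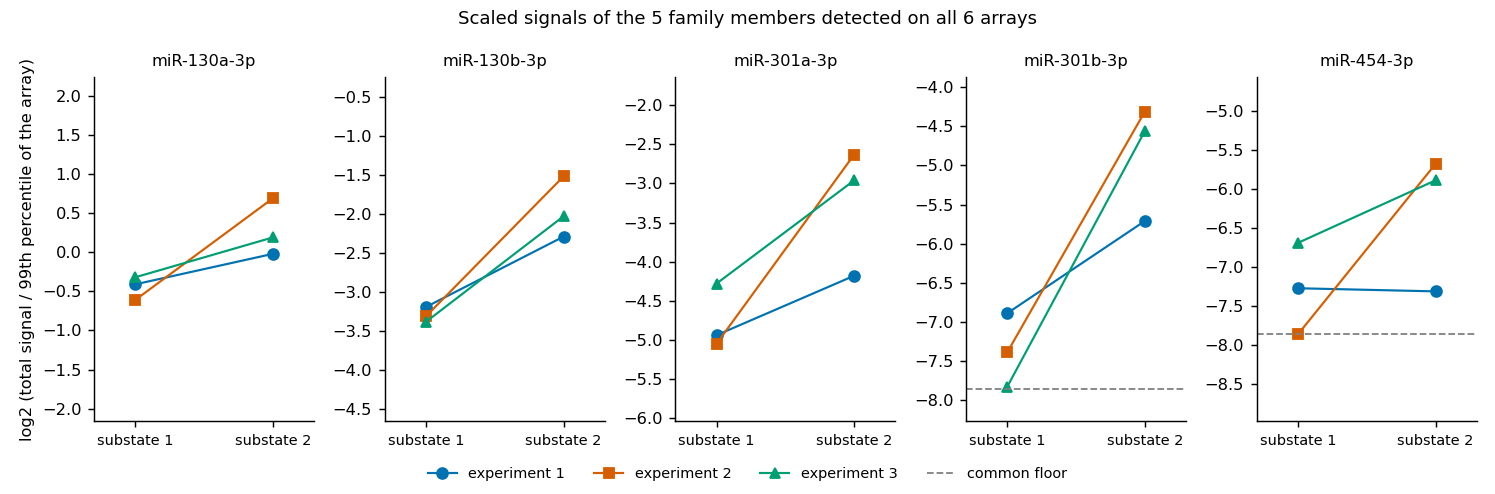
Log2 of the total signal over the array's 99th percentile (vertical axis) in substate 1 and substate 2 for the 5 members detected on all 6 arrays, with a line joining both arrays of an experiment and a dashed line at the floor of −7.86. Axes span equal log2 ranges but differ in height, since levels of different miRNAs are not compared. The substates are apart for miR-130a-3p, miR-130b-3p, miR-301a-3p and miR-301b-3p, and overlap for miR-454-3p.

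By experiment, the median difference of the 6 tested members was 0.57, 1.98 and 1.06, where the medians of all 474 tested miRNAs were −0.04, 0.00 and 0.00. For each 3p arm except miR-301b-3p, experiment 2 gave the largest difference, and for that miRNA experiment 3 did. Experiment 1, the only one on slide 1 and read with a later version of the software, gave the smallest difference for all 5 of the 3p arms. Within slide 2, where substates are compared in 2 experiments, the scaled signals of the 3p arms were higher in substate 2 in both.

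**Figure D3:**
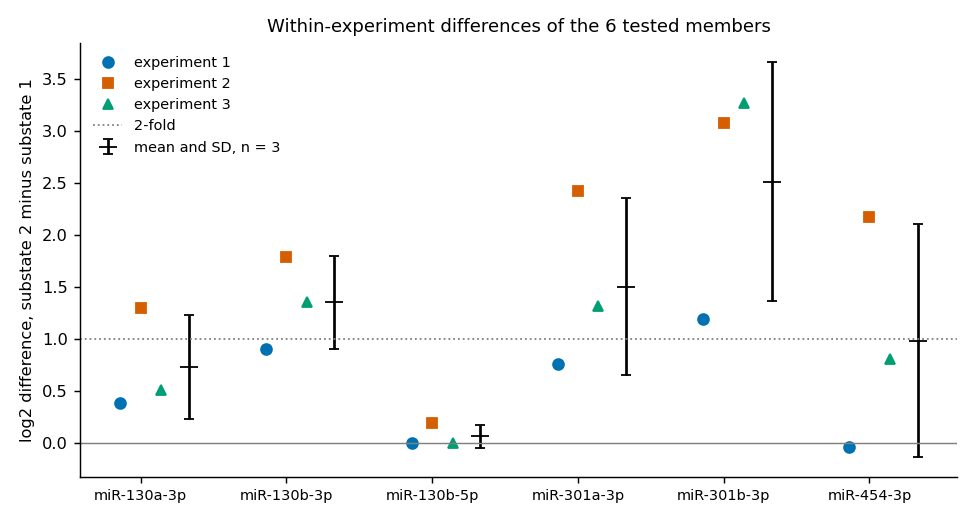
Scaled log2 difference, substate 2 minus substate 1 (vertical axis), of the 6 tested members in each of the 3 experiments, with the mean and SD in black and a dotted line at 2-fold. Without scaling, miR-130a-3p was lower in substate 2 in experiments 1 and 3 and miR-301a-3p and miR-454-3p in experiment 1. Experiment 1 lies lowest for the 5 3p arms, and miR-454-3p lies at −0.04 there.

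Set beside all tested miRNAs, 3 members (miR-130b-3p, miR-301a-3p and miR-301b-3p) were at least 2-fold higher in substate 2, as were 23 of 474 (4.85%). They held places 8, 4 and 1 from the top of the 474 differences, and miR-454-3p, miR-130a-3p and miR-130b-5p held places 28, 59 and 195. In all, 4 members were higher in all 3 experiments, beside 100 of 474 (21.1%), and the same 4 had all substate 2 arrays above all substate 1 arrays, beside 56 of 474 (11.8%). Nothing is read from these counts, since this contrast had served to choose the family.

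With limma, experiment as a block, Benjamini-Hochberg adjustment and a call at an adjusted p under 0.05 with at least a 2-fold difference, 0 of 474 miRNAs were called (0.0%), and thus 0 members. The smallest adjusted p of this limma fit was 0.139, 109 miRNAs had an unadjusted p under 0.05, and the paired test named in a figure legend of the study, run here on the same 474 miRNAs and values, also called 0. The study adjusted its test over miRNAs with a 2-fold difference. In that order, chosen here after the data were seen, 0 of 45 were called, and 14 had an unadjusted p under 0.05. With the 289 miRNAs detected on all 6 arrays, the limma rule called 7 (2.42%), 5 higher and 2 lower in substate 2. Of these, 2 were members, from which nothing is read because of how the family was chosen. The count of 23 became 43 without experiment 1 and 36 without experiment 3.

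**Figure D4:**
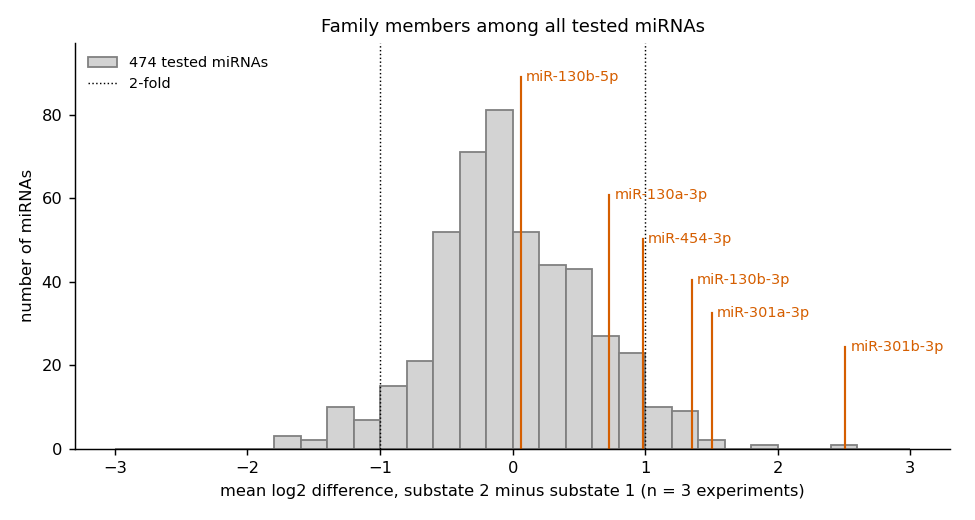
Number of tested miRNAs (vertical axis) by mean scaled log2 difference over the 3 experiments, substate 2 minus substate 1 (horizontal axis, bins of equal width), with the 6 tested members marked and dotted lines at 2-fold. miR-301b-3p, at 2.51, has the largest difference of all 474 with this scaling (1.49 after quantile normalization and 0.80 after normexp, where miR-130b-3p had 1.06), and miR-130b-5p, at 0.06, lies in the middle.

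The size of these differences depended on the scaling. Without it, the median difference of all tested miRNAs moved to −0.57 and that of the tested members to 0.60. The gap between these medians was 1.17, as with scaling, which is no check, since scaling shifts all miRNAs of an array alike. Without scaling, at least 2-fold differences numbered 4 higher and 105 lower, in place of 23 higher and 22 lower. There 1 member was at least 2-fold higher. On the substate 1 array of experiment 1 the median ratio of a probe's total signal to its mean spot signal was 0.186, against 0.141 on the other 5 arrays. This factor cancels in scaled values and in ratios within an array but enters unscaled totals. With mean spot signals in place of totals, the unscaled difference of miR-130a-3p in experiment 1 was −0.04 in place of −0.44, and that of miR-301a-3p was 0.33 in place of −0.07.

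Ratios within an array need no scaling, and they showed that the 3p arms changed unequally. Relative to miR-130a-3p on the same array, the signal of miR-130b-3p went from 14.5% to 20.7% in experiment 1, from 15.4% to 21.6% in experiment 2 and from 12% to 21.6% in experiment 3. The substates were apart, and the mean log2 change of the ratio was 0.62 ± 0.20 (SD, n = 3). miR-301a-3p went from 4.33% to 5.60%, from 4.61% to 10% and from 6.45% to 11.3% of miR-130a-3p, a change of 0.77 ± 0.38, with overlap between the substates and a higher value in substate 2 within each experiment. miR-301b-3p went from 1.11% to 1.94%, from 0.914% to 3.13% and from 0.549% to 3.72%, a change of 1.78 ± 0.98. In substate 1 its total leaves out 1 probe in experiment 2 and 2 probes in experiment 3 that count on the substate 2 array. With all probes summed, an alternative chosen after the data were seen, the steps of these experiments were from 1.07% to 3.11% and from 0.893% to 3.66%, and the change over all 3 was 1.46 ± 0.62. For miR-454-3p the ratio was lower in substate 2 in experiment 1 (0.856% and 0.639%) and higher in experiments 2 (0.649% and 1.21%) and 3 (1.21% and 1.48%). The shares themselves depend on the probes and are no measure of relative amounts.

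**Figure D5:**
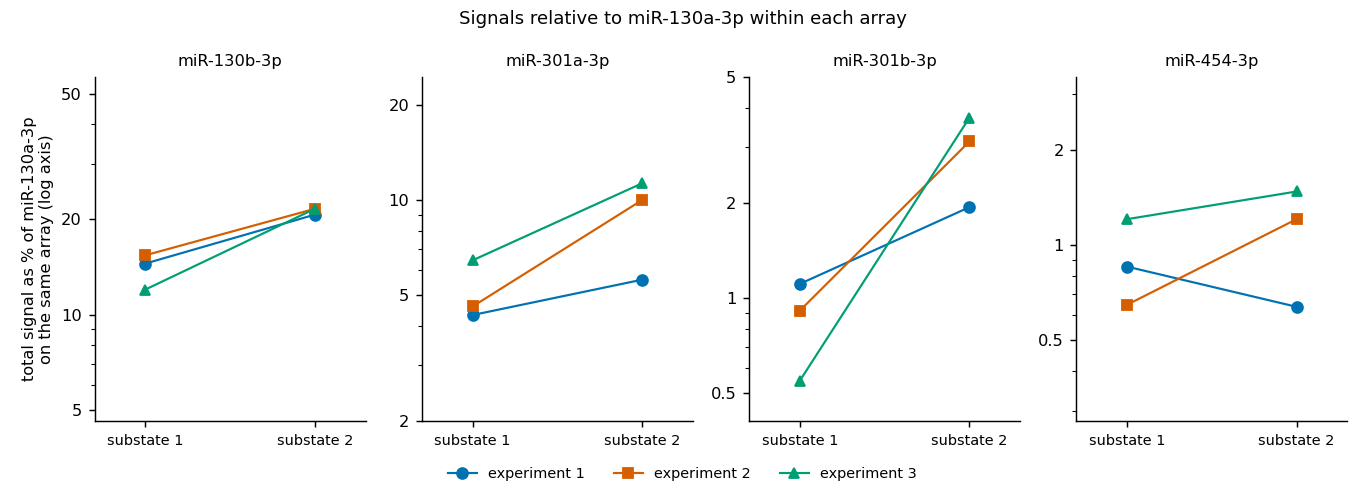
Total signal of 4 members as a percent of miR-130a-3p on the same array (vertical log axes of equal span), in substate 1 and substate 2, with a line for each experiment. Lines go up in all 3 experiments for miR-130b-3p, miR-301a-3p and miR-301b-3p, and down in experiment 1 for miR-454-3p.

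Neighbours on a chromosome were set side by side. For the pair on chromosome 22, scaled differences in experiments 1, 2 and 3 were 0.90, 1.79 and 1.35 for miR-130b-3p and 1.19, 3.08 and 3.27 for miR-301b-3p. The ratio of miR-301b-3p to miR-130b-3p on the same array was the higher in substate 2 in each experiment, going from 7.69% to 9.40%, from 5.94% to 14.5% and from 4.58% to 17.3%, a mean log2 change of 1.16 ± 0.82. With all probes summed it went from 7.57% to 9.29%, from 6.95% to 14.4% and from 7.44% to 17.0%, a change of 0.85 ± 0.48. For the pair on chromosome 17, differences were 0.76, 2.42 and 1.31 for miR-301a-3p and −0.04, 2.17 and 0.80 for miR-454-3p. Here the ratio of the total of miR-454-3p to that of miR-301a-3p was the lower in substate 2 in each experiment, going from 19.8% to 11.4%, from 14.1% to 12% and from 18.7% to 13.1%. The total of miR-454-3p leaves out 1 of its 2 probes on all 6 arrays. In experiment 2 that probe had 0.0504 in substate 1 and 0.914 in substate 2, beside 1.51 and 5.48 for the other. This ratio was not computed with both probes summed, and the small step of experiment 2 may depend on that choice. Both arms next to each other were thus detected in either pair, and within neither pair did the total signals change equally.

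The array reads each member with 2 or 4 probes, and these were compared as a check on each total. Both probes of miR-130a-3p, with 10 spots each, gave a difference of 0.73 (SD 0.51 and 0.49), and spots of a probe varied with a median CV of 4.59%. For miR-130b-3p the probes gave 1.31 ± 0.46 and 1.40 ± 0.43, and for miR-301a-3p 1.52 ± 0.77 and 1.46 ± 1.00. Probes of these 3 miRNAs thus differed by less than the spread between experiments.

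The 4 probes of miR-301b-3p behaved unequally. The first did not exceed 3 errors on any array, and its signal was at most 0.243 times its error. The second exceeded 3 errors on 4 arrays, the third on 5 and the fourth on all 6. In substate 1 of experiment 3 the fourth probe alone exceeded 3 errors and made up the whole total of 0.791, whereas the second probe and the third, at 0.109 and 0.430, were left out of it. On the substate 2 array of that experiment these 2 probes entered with 0.874 and 1.66 beside 2.76 for the fourth. In experiment 2 the second probe was left out in substate 1, at 0.328, and entered in substate 2 with 2.39. The fourth probe alone gave differences of 1.25, 2.88 and 2.33 and a mean of 2.15 ± 0.83, and with the mean over all spots the difference of miR-301b-3p was 2.22, both below the 2.51 of the totals.

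For miR-454-3p the whole total came from 1 of its 2 probes, which exceeded 3 errors on all 6 arrays. The other probe stayed at or below 3.00 times its error, with its highest value, 0.914, on the substate 2 array of experiment 2, where the detected probe gave 5.48. For miR-130b-5p, 1 of 4 probes exceeded 3 errors on 3 arrays and another on 1. The highest signal of any probe was 2.35 times its error for miR-454-5p, 1.34 times for miR-130a-5p and 0.686 times for miR-301a-5p.

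Of 8 listed miRNAs of the miR-17 family, which is abundant in pluripotent cells and promotes proliferation, 7 were on the array. All 7 were detected on all arrays. The list was made by name and includes miR-18a-5p and miR-18b-5p, and the seeds of its miRNAs were not compared. The median difference of the 7 was 0.63, with 0 at least 2-fold higher. Without scaling it was 0.07, when 5 of the 7 were above 0. With scaling all 7 were higher in substate 2 in all 3 experiments. Their medians were 0.25, 1.31 and 0.35 in experiments 1, 2 and 3, and 0.36 without experiment 2. This holds for the list alone, which was not checked for completeness and leaves out miR-519d-3p (−1.62). By the mean scaled signal over all arrays, the highest on the list were miR-20b-5p (0.77 ± 0.50), miR-20a-5p (0.60 ± 0.59), miR-17-5p (0.63 ± 0.47) and miR-93-5p (0.48 ± 0.33). For the miR-302/miR-367 cluster, a hallmark of human pluripotent stem cells, 12 miRNAs were listed by name, and 8 of them were tested. The list includes miR-302e and miR-302f, which were detected on no array and whose place in the cluster was not checked. Over the 8 tested, the cluster had a median of −0.33 with scaling and −0.89 without it. Its scaled medians were −0.59, 0.26 and −0.59 in experiments 1, 2 and 3, and −0.65 without experiment 2. By the same mean, its miRNAs of highest signal were miR-367-3p (0.21 ± 0.72), miR-302a-3p (−0.36 ± 0.54), miR-302c-3p (−0.22 ± 0.36) and miR-302b-3p (−0.51 ± 0.68). In both lists the order differed on single arrays. The median of the family members tested was 1.16 (0.74 without experiment 2), and that of all tested miRNAs was −0.01.

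Marker miRNAs of cell types were looked up as well. The arrays hold exosome RNA and not RNA of the cells, so these signals are no check on the label of the cells. Of 8 pluripotent stem cell markers, 5 (miR-302a-3p, miR-302b-3p, miR-302c-3p, miR-302d-3p and miR-367-3p) were detected on all 6 arrays, miR-371a-3p on 2, miR-373-3p on 1 and miR-372-3p on none. Their summed total signal was 5588.8 and 2184.7 in experiment 1, 3031.1 and 3407.8 in experiment 2, and 2512.4 and 1252.3 in experiment 3, with substate 1 first. Of 4 neural markers, miR-124-3p and miR-128-3p were detected on all 6 arrays and miR-9-5p and miR-9-3p on none. The neural sums were 15.0 and 9.39, 10.4 and 17.6, and 5.27 and 4.46. Summed over the arrays miR-124-3p had the higher total signal of the 2, though signals of different probes are no measure of relative amounts. The scaled differences were 0.58 ± 0.35 for miR-124-3p and 0.39 ± 0.72 for miR-128-3p. The median of these 2 was 0.49 with scaling, −0.07 without it, and 0.18 with scaling but without experiment 2. As they had positive scaled differences as the 3p arms did, the values are given here, and their part in the family's differences was not tested. Of 4 mesenchymal or smooth muscle markers miR-145-5p alone was detected, on 3 arrays with at most 1.72, and of 4 blood markers miR-486-5p alone, on 3 arrays with at most 3.62. The 3 muscle markers and the liver marker on the array, miR-122-5p, were undetected on all 6 arrays.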

How the data were processed

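Agilent SurePrint G3 miRNA arrays were hybridised by the authors with exosome RNA labelled in 1 colour. The deposited intensity values come from Agilent Feature Extraction, per the file headers version 12.0.3.2 for experiment 1 and 11.5.1.1 for experiments 2 and 3, which gives a signal per spot after background subtraction and totals per probe and per miRNA, not normalized between arrays. The authors also deposited log2 values per miRNA, used as an alternative. From the totals, log2 values over each array's 99th percentile were computed with a common floor, set where the least sensitive array had its dimmest detected miRNA after scaling, which shrinks differences of dim miRNAs. Of 2549 miRNAs on 5893 probes (0 saturated spots), 474 entered a two-sided test in limma 3.58.1 (R 4.3.3) with experiment as a block as in the study's paired test, after a test on simulated data. The values were tabulated in Python 3.11.15 and drawn with matplotlib 3.10.9. Detection equalled a probe over 3 errors for all miRNAs and arrays (0 exceptions). The members, the comparison lists and the cell type markers were chosen with earlier results of these data known. Alternatives covered floor, scaling, background, filter, block, test and each experiment left out. For normexp, the median spot intensity took the place of the mean, and an offset of 50 was used. Gene spans served for names and neighbours alone, and sequences for their own positions.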

Additional observations from a re-analysis of the deposited data

How the results depend on the processing

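Under all alternatives run, each 3p arm kept a positive mean difference, from 0.17 (miR-130a-3p, no scaling) to 3.17 (miR-301b-3p, without experiment 1). Of 71 member values under alternatives, 64 moved by less than the SD between experiments, 7 by more, and 0 changed sign. The 64 include values under other detection filters, which change the miRNAs tested and cannot move the value of a member. The members' median lay between 0.60 (no scaling) and 1.53 (without experiment 1). Relative to the median of all tested miRNAs it was lowest, 0.42, in the normexp alternative, where the median of all was 0.33. With the authors' deposited log2 values it was 1.44, where the median of all was −0.12. The normexp alternative also took median spot intensities and an offset of 50, and its shifts cannot be put down to 1 of these choices.

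The 23 miRNAs at least 2-fold higher became 68 with the deposited log2 values, 4 without scaling and 10 after quantile normalization. They became 1 after normexp with its offset and median spot intensities, and 18 to 43 with 1 experiment left out. Of members, 1 was at least 2-fold higher without scaling and 1 after normexp. Calls by limma were 7 with detection on all 6 arrays, where fewer miRNAs were tested, and 3 after normexp, 2 of them outside the family (miR-7107-5p and miR-7110-5p, named after their values were seen). The cause of these shifts was not tested. By spots well above background for most spots of a miRNA, 3 members were detected on all 6 arrays in place of 5.

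With no replicate block, limma called 1 miRNA, miR-519d-3p, also named after its value was seen. Deviations from the substate means correlated with 0.674, 0.0307 and 0.517 between both arrays of experiments 1, 2 and 3, and 4 of 6 arrays correlated best with their own experiment's array, so that the pairing rests on the experiment numbers and the study's test. With slide as a block, and with the paired t-test that a figure legend of the study names, 0 were called after Benjamini-Hochberg adjustment. In the paired t-test 57 had an unadjusted p under 0.05. The paired t-test was also adjusted over miRNAs with a 2-fold difference only, as the study did, an order added after seeing the data. There the test called 0 of 45, 0 of 47 with signals under 1 raised to 1, and 0 of 140 with deposited log2 values. Signal over background limits miR-301b-3p and miR-454-3p, near the floor in substate 1, and the 5p arms.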
